A study of Mus musculus with 29 samples.

Results

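Transcripts of 10 cyclins, kinases and Cdc25 phosphatases, most of which act between G1 and S phase, were followed in hematopoietic stem cells (HSCs) of young and old WT and Gadd45b knockout mice. The genes are the D-type cyclins Ccnd1, Ccnd2 and Ccnd3, their kinases Cdk4 and Cdk6, the E-type cyclins Ccne1 and Ccne2, their kinase Cdk2, and the phosphatases Cdc25a and Cdc25b. They were chosen by symbol, and all 10 were found among the 55376 gene symbols in each of the 19 RNA-seq count files. RNA-seq count files covered HSCs of 4 young WT (YWT), 4 old WT (OWT), 4 young knockout (YKO) and 7 old knockout (OKO) samples. These samples had no treatment. The paper's methods give more OWT and YKO samples than these, and the same numbers of YWT and OKO. GADD45B is a stress-induced protein linked to DNA demethylation, and the study asked how its loss changes the DNA methylation and transcripts of HSCs with age. Knockout animals carry the deletion in every cell from the germline on, so the cells around the HSCs also lack the gene. HSCs were sorted by surface antigens, and a sorted population may hold other cells.

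G1 cyclins have no activity of their own and work by switching on a kinase partner. D-type cyclins respond to growth signals and bind Cdk4 or Cdk6, which begin to phosphorylate the retinoblastoma protein, the brake on E2F transcription factors. E2F factors then turn on Ccne1, Ccne2, Cdc25a and the genes of DNA replication, and cyclin E with Cdk2 completes the step into S phase. Cdc25 phosphatases remove the inhibitory phosphates from these kinases, Cdc25a from Cdk2 at the start of S phase and Cdc25b mainly from Cdk1 before mitosis. Most adult HSCs rest outside the cell cycle, and the level of Cdk6 is known to set how readily human HSCs leave that rest.

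Sequence upstream of 4 of these genes is shown first. In the comparison of OKO with YKO below, only Cdc25b of these 4 passed the test with all libraries. RefSeq promoters of build GRCm38.p6 were matched to 7 of the 10 genes. Each line holds the 250 bases before the start site. Capitals mark, in Cdc25b, the CCAAT box read from the other strand, TTTGGCGC in Cdc25a and GCGGGAAA in Cdk2, which are E2F-like words, and CACGTG, the E-box word bound by Myc, in Cdk4. They lie on chr2:131186698-131186947 (Cdc25b, plus strand), chr9:109875329-109875578 (Cdc25a, plus strand), chr10:128705052-128705301 (Cdk2, minus strand) and chr10:127063285-127063534 (Cdk4, plus strand).
Cdc25b: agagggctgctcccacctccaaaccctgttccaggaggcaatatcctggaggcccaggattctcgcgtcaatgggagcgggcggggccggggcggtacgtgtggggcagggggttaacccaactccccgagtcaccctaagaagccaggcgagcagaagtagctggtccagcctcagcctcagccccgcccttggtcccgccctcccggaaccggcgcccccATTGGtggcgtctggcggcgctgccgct
Cdc25a: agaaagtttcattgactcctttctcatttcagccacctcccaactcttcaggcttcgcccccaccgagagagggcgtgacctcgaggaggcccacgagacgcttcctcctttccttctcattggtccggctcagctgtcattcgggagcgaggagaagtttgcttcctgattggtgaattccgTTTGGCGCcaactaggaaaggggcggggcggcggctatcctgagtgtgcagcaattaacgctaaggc
Cdk2: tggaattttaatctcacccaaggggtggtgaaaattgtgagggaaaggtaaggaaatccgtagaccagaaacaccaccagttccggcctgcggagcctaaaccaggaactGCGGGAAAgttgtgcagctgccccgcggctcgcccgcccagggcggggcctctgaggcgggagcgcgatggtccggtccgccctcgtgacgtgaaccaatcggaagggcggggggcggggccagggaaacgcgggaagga
Cdk4: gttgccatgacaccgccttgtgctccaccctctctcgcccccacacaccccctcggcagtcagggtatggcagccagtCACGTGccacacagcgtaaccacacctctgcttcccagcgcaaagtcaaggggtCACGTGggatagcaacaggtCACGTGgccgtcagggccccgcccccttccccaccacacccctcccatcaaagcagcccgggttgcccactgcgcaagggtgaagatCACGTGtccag
The E2F-like words searched were TTTCCCGC, TTTGGCGC, TTTCGCGC and TTTGCCGC on both strands. They occurred in 2.26% of 32851 mouse promoters of 300 bases, and among the 7 matched genes only in Cdk2, at 140 bases before the start site, and Cdc25a, at 67 bases before it. CACGTG occurred in 7.15% of promoters, 4 times in that of Cdk4 and once in that of Cdk6. CCAAT occurred in 37.4% of promoters and the word GGGCGG, bound by Sp1, in 35.7%. On either strand, CCAAT also lay, not capitalized, in Cdc25a at 131 and 81 bases before the start site and in Cdk2 at 45. A promoter of Ccnd3 held it at 108 bases before the start site. GGGCGG lay in every matched gene but Cdk6. A match describes the letters of the window and not a bound site.

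Depth per library was 22197555 to 77970627 counts (median 57562473). The lowest count of any of the 10 genes in any library was 145 (Ccne1 in OKO1). All 10 genes passed the filter on low counts, as did 33690 genes in all. A prefix shared by 8 sample titles marked a batch here called batch 2, which held all 4 OWT and 4 OKO libraries (OKO4 to OKO7), and batch 1 held the other 11. All YWT libraries were in batch 1 and all OWT libraries in batch 2, so the WT libraries alone cannot tell age from batch, and a batch term rests on the OKO libraries. OKO1 and OKO3 stood apart with the highest normalization factors. Gadd45b itself was at 2.84 to 6.94 CPM (counts scaled to the library's normalized total) in OKO and at 10.1 to 15.5 CPM in OWT, without overlap. In YKO it was at 5.14 to 14.3 CPM, which overlapped the 7.34 to 17.5 CPM of YWT. Which exons are deleted is not given in the sources used here, so YKO below means the libraries labelled YKO. All 10 HSC markers were detected in every library, with gene medians from 11.5 to 1007 CPM. Labels give female for every library, while Y-linked genes passed 10 CPM in 7 of 19.

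Compared per kilobase (kb) of exon, the only scale on which levels of different genes are set side by side here, Cdk4 was the most abundant transcript in every group. Its mean was 141 ± 20.8 CPM per kb in YWT (SD, n = 4), 139 ± 14.1 in OWT (n = 4), 168 ± 40.2 in YKO (n = 4) and 124 ± 47.7 in OKO (n = 7). Ccnd2, Ccnd3 and Cdk2 followed in that order in all 4 groups. Ccnd2 was at 52.1 ± 4.75 and Ccnd3 at 36.7 ± 4.20 CPM per kb in YWT, and the ranges of these 2 neighbours did not overlap in YWT or YKO but did in OWT and OKO. In OKO, Ccnd2 exceeded Ccnd3 in 3 of 7 libraries. Cdk2 was at 17.5 ± 1.35 CPM per kb in YWT. The other 6 genes had means from 4.47 (Ccne2 in OKO) to 16.8 CPM per kb (Ccne1 in YKO), and within each group nearly every pair of neighbours among them overlapped. Cdc25a above Ccne2 in YKO was the one exception. The order of Ccnd2 and Ccnd3 depended on the length used, since dividing by the longest transcript in place of all exons put Ccnd3 first in all 4 groups.

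**Figure D1:**
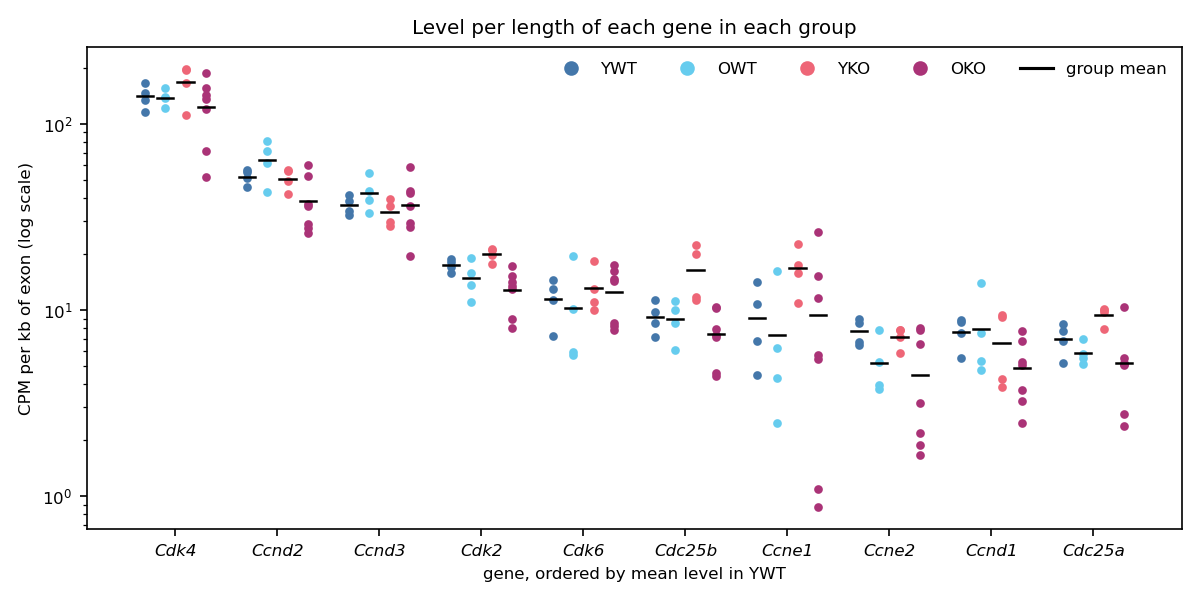
CPM per kb of exon (log axis) of each gene in each library, colored by group, with group means as black bars and genes ordered by their mean in YWT. Cdk4 sits at the top in all 4 groups (means 124 to 168), and Ccnd2, Ccnd3 and Cdk2 follow. The other 6 genes have group means between 4.47 and 16.8.

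The D-type cyclins together link growth signals to the cycle, and Ccnd2 and Ccnd3 made up nearly all of their transcript. Of the summed level per kb of the 3 genes, Ccnd2 took 54.0 ± 2.29% in YWT, 55.6 ± 9.36% in OWT, 56.1 ± 2.86% in YKO and 47.8 ± 6.94% in OKO. Ccnd1 took a mean of 6.38 to 7.91% in each group. Ccnd2 in CPM was 517, 482, 532 and 431 in YWT1 to YWT4. It was 757, 406, 673 and 583 in OWT1 to OWT4. It was 463, 395, 531 and 526 in YKO1 to YKO4. In OKO it ran from 245 to 564 with a median of 342. The 3 lowest of all 19 libraries were OKO1 to OKO3, at 245, 273 and 261 CPM, while OKO6 and OKO7 at 564 and 495 CPM lay within the OWT range. Against OWT, the log2 fold change of Ccnd2 in OKO was -0.74 (SE 0.236, edgeR adjusted p = 0.592), with 5 of 7 OKO libraries below all 4 OWT libraries. With OKO of batch 2 only, the batch of all OWT libraries, it was -0.44 for Ccnd2.

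Ccnd1 and Ccnd3 varied between libraries of a group. Ccnd1 in CPM was 41.8, 40.6, 35.3 and 25.9 in YWT and 66.1, 24.96, 22.4 and 35.6 in OWT. It split the YKO libraries into 20.01 and 18.3 CPM in YKO1 and YKO2 and 43.0 and 44.2 CPM in YKO3 and YKO4. In OKO Ccnd1 ran from 11.7 to 36.3 with a median of 23.7 CPM, overlapping all other groups. Its log2 fold change in OKO vs OWT was -0.69 (SE 0.326, edgeR adjusted p = 0.592). Ccnd3 in CPM was 298, 286, 366 and 338 in YWT, 383, 481, 341 and 289.9 in OWT, and 249.6, 259.9, 319.9 and 347 in YKO. In OKO Ccnd3 ran from 172 to 517 with a median of 319 CPM, the widest range of the 4 groups. The log2 fold change of Ccnd3 was between -0.21 (OKO vs OWT) and 0.21 (OWT vs YWT) in all 4 comparisons. Reads of Ccnd1 overlap those of LTO1 on the other strand over 23.4% of its exon length, and the library kit does not mark strand, so the levels of Ccnd1 may include reads of that gene.

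Cdk4 and Cdk6 are the partners of the D-type cyclins. Cdk4 in CPM was 539, 475, 439 and 378 in YWT and 447, 508, 452 and 396 in OWT. It was 538, 362, 642 and 636 in YKO. In OKO Cdk4 ran from 168 to 612 with a median of 442 CPM. OKO1 (168) and OKO3 (233) were the lowest of all libraries and OKO7 (612) was above all WT libraries. Cdk6 in CPM was 203, 101, 182 and 159 in YWT, 83.2, 273, 141 and 80.4 in OWT, and 258, 139, 155 and 182 in YKO. In OKO Cdk6 ran from 109 to 243 with a median of 201 CPM. All 4 groups of Cdk6 overlapped, and its log2 fold change farthest from 0 was 0.27 (SE 0.322, edgeR adjusted p = 0.734) in OKO vs OWT. Tspan31 overlaps 19.7% of the exon length of Cdk4 on the other strand.

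Ccne1 had the widest range of the 10 genes in YWT, OWT and OKO. Ccne1 in CPM was 37.5, 28.8, 18.3 and 11.9 in YWT and 6.62, 11.5, 43.0 and 16.7 in OWT. It was 42.2, 29.1, 60.5 and 46.6 in YKO. In OKO Ccne1 ran from 2.32 (OKO3) to 69.7 (OKO7) with a median of 15.2 CPM, a 30.0-fold range between libraries of 1 group and a 4.77-fold range without OKO1 and OKO3. Its log2 fold change was 0.89 (SE 0.729, edgeR adjusted p = 1.00) in YKO vs YWT and -0.83 (SE 0.629, edgeR adjusted p = 0.536) in OKO vs YKO, and neither passed the test. Ccne2 in CPM was 31.5, 22.7, 29.9 and 23.5 in YWT, 13.2, 13.8, 27.5 and 18.4 in OWT, and 27.3, 20.5, 27.3 and 24.99 in YKO. In OKO Ccne2 ran from 5.81 to 28.1 with a median of 11.1 CPM. OKO1 and OKO3 were the lowest of all 19 libraries for both E-type cyclins. Ints8 overlaps 17.4% of the exon length of Ccne2 on the other strand.

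Cdk2, the partner of the E-type cyclins, had the narrowest range of the 10 genes in YWT, YKO and OKO. In CPM it was 113, 105, 118 and 98.8 in YWT and 97.8, 118, 84.5 and 68.6 in OWT. It was 123, 110.3, 132 and 131 in YKO. In OKO it ran from 49.7 to 108 with a median of 83.9 CPM. All 7 OKO libraries lay below all 4 YKO libraries. The log2 fold change of Cdk2 in OKO vs YKO was -0.63 (SE 0.198), and its edgeR adjusted p of 0.116 did not pass.

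Both phosphatases had their highest group mean in YKO and their lowest in OKO. Cdc25a in CPM was 67.3, 61.6, 55.0 and 41.6 in YWT, 46.3, 44.4, 56.4 and 41.4 in OWT, and 80.1, 63.7, 81.6 and 78.0 in YKO. In OKO Cdc25a ran from 19.1 to 83.2 with a median of 41.2 CPM. OKO7, at 83.2 CPM, was above every other library and the other 6 OKO libraries were below all YKO libraries. Cdc25b in CPM was 42.1, 36.5, 32.0 and 26.9 in YWT and 37.4, 41.7, 31.6 and 22.8 in OWT. Cdc25b was 75.1, 83.2, 44.0 and 42.4 CPM in YKO1 to YKO4. In OKO Cdc25b ran from 16.5 to 38.9 with a median of 27.3 CPM. The 4 YKO libraries held the 4 highest values of Cdc25b among the 19, with YKO1 and YKO2 apart from the rest. Y-linked genes summed to 0 and 0.13 CPM in YKO1 and YKO2 and to 151 and 155 CPM in YKO3 and YKO4. YWT was divided likewise, with 0.089 and 0.048 CPM in YWT1 and YWT2 and 218 and 145 CPM in YWT3 and YWT4. Cdc25b was higher in YWT1 and YWT2 than in YWT3 and YWT4. Gadd45b was at 12.7 and 14.3 CPM in YKO1 and YKO2 and at 5.98 and 5.14 CPM in YKO3 and YKO4. The part of sex or of Gadd45b level in the split of Cdc25b among YKO libraries was not tested.

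**Figure D2:**
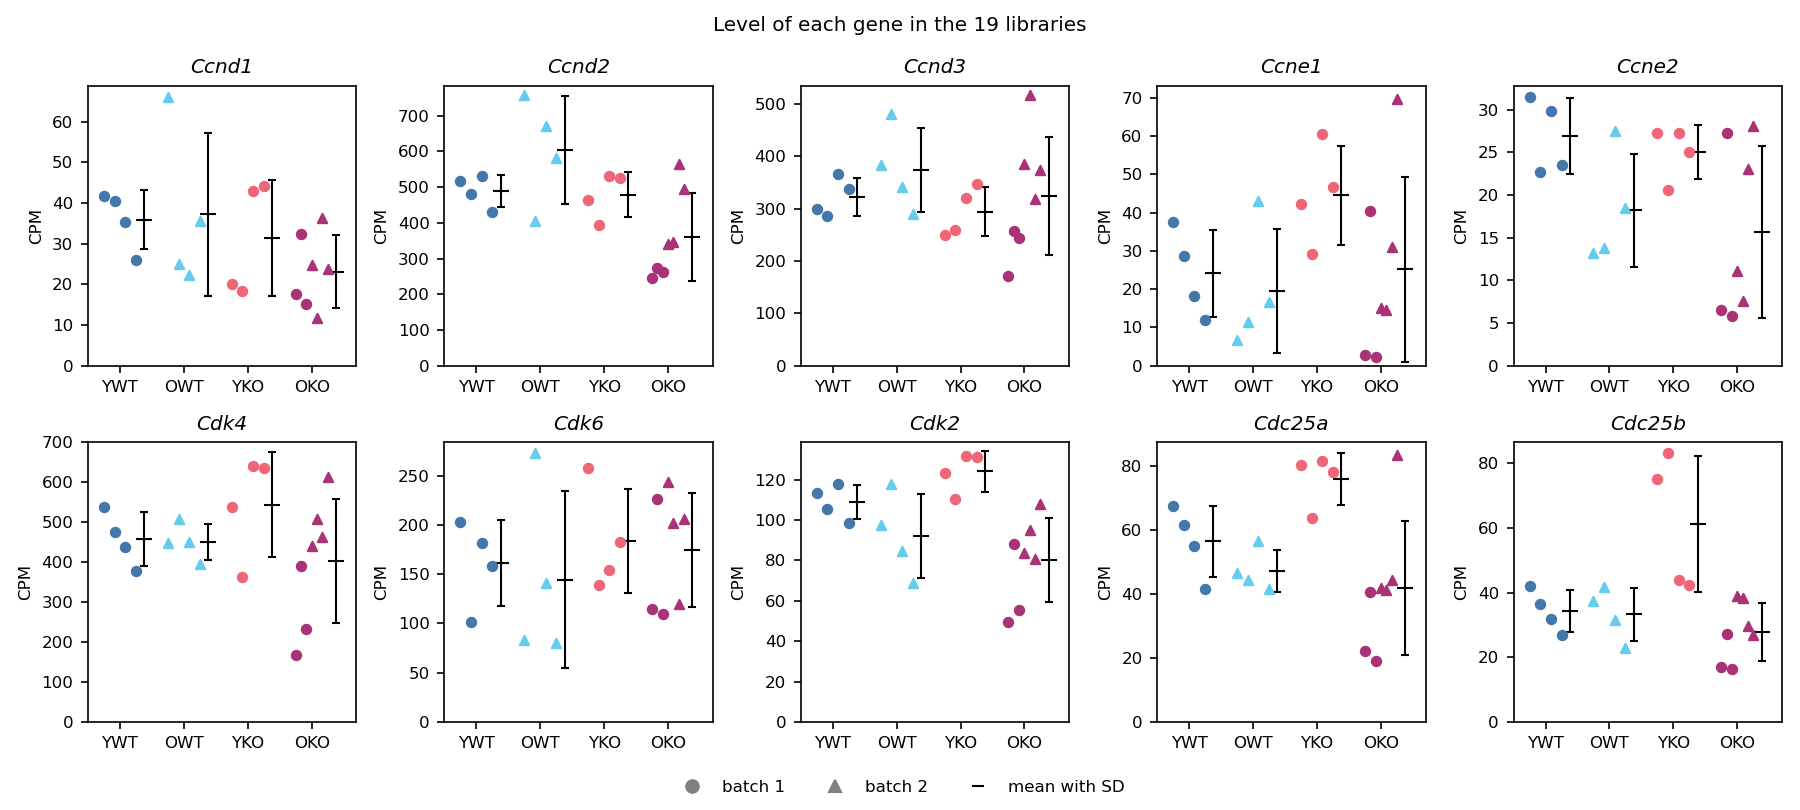
CPM of each of the 10 genes in each library by group, circles for batch 1 and triangles for batch 2, with the mean and SD of each group in black. Cdc25b in YKO (42.4 to 83.2) lies above OKO (16.5 to 38.9), while in most other panels the OKO libraries spread over the range of the other groups.

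With age in the knockout (OKO vs YKO), Cdc25b fell and the other 9 genes did not pass the test. The log2 fold change of Cdc25b was -1.13 (SE 0.251, 95% interval -1.66 to -0.61), from a mean of 61.2 ± 21.0 CPM in YKO (SD, n = 4) to 27.8 ± 8.97 CPM in OKO (n = 7), with an edgeR adjusted p of 0.0258. Cdc25b was thus 1 of 10 genes called, where 1.29% of all tested genes were called and 0.692% were called lower. Its gene lies on the plus strand of chr2:131186949-131198497 (mm10, GENCODE M21). Cdc25b and Cdk2 were the 2 of 10 genes whose groups did not overlap, both lower in OKO, against 2.6% of all genes and 1.48% lower in OKO. Cdc25a had a log2 fold change of -0.86 (SE 0.271, edgeR adjusted p = 0.117), with 6 of 7 OKO libraries below YKO. Of the 10 genes, 9 had a negative log2 fold change (Cdk6, at -0.073, turned to 0.053 under upper-quartile scaling) and Ccnd3 a value of 0.14, with a median of -0.54, where 38.2% of all genes were negative and the median of all genes was 0.23. Without a correction for multiple testing, 3 of 10 genes (Cdc25b, Cdk2 and Cdc25a) had p under 0.05, against 15.8% of all genes. In these bulk samples, fewer cells that express a gene and less RNA per cell cannot be told apart.

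OKO libraries of the 2 batches differed in this comparison, and all YKO libraries belong to batch 1. With OKO of batch 1 only (OKO1 to OKO3), 5 of 10 genes were lower in OKO by the same edgeR test, where 17.9% of all genes were called. They were Cdc25b (log2 fold change -1.53, adjusted p = 0.00363), Cdc25a (-1.42, adjusted p = 0.00245), Cdk4 (-0.99, adjusted p = 0.0173), Cdk2 (-0.88, adjusted p = 0.0105) and Ccnd2 (-0.82, adjusted p = 0.0149). With OKO of batch 2 only, across batches, 0 of 10 passed, where 0.815% of all genes were called, and Cdc25b was at -0.83 (adjusted p = 0.111), Cdk2 at -0.41, Cdc25a at -0.51, Ccnd2 at -0.11 and Cdk4 at -0.09. Leaving out a single library also ended the call of Cdc25b, with an adjusted p of 0.133 without YKO1, 0.0713 without YKO2 and 0.0512 without OKO3. Without both OKO1 and OKO3, Cdc25b was at -0.94 (SE 0.221, adjusted p = 0.0503) and 0 of 10 genes passed, where 0.834% of all genes were called. Mean Cdk4 was 264 ± 114 CPM (SD, n = 3) in OKO of batch 1 and 506 ± 76.2 CPM (n = 4) in OKO of batch 2, and mean Ccnd2 was 259.5 ± 14.0 and 437 ± 111 CPM. Cdc25b was at 20.3 ± 6.08 CPM in OKO of batch 1 and 33.5 ± 6.12 CPM in batch 2, both ranges below the lowest YKO library.

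**Figure D3:**
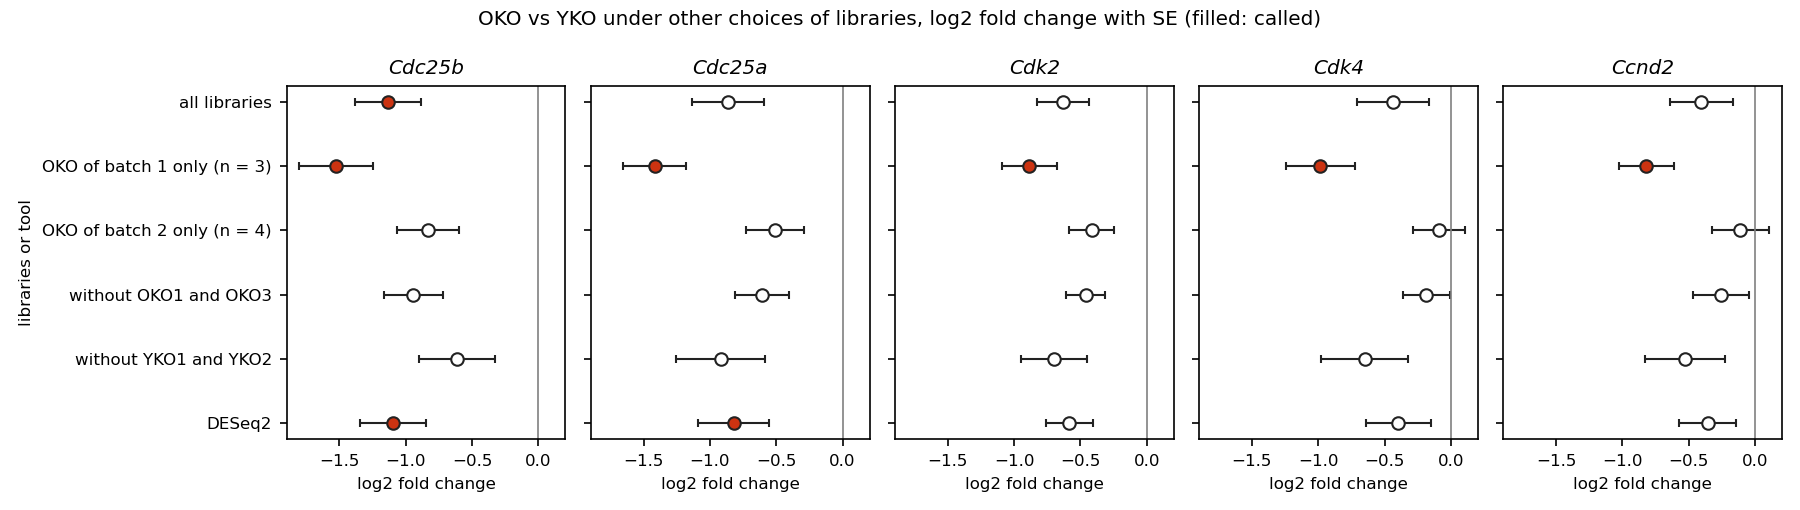
log2 fold change with SE in OKO vs YKO for Cdc25b, Cdc25a, Cdk2, Cdk4 and Ccnd2, with all libraries, with OKO of 1 batch, without the named libraries and by DESeq2 (filled where called, at an adjusted p under 0.05 with over 1.5-fold change). All 5 genes are filled with OKO of batch 1 only, and none is filled with OKO of batch 2 only.

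Markers of other blood cells also differed between YKO and OKO, and their part in the fall of Cdc25b was not tested. Of the 8 B cell markers, 5 were called lower in OKO, including Cd22, with a log2 fold change of -6.18. Their summed level ran from 194 to 1457 CPM in YKO and from 29.0 to 206 CPM in OKO. Called lower as well were 2 of 6 T cell markers (24.8 to 113 CPM summed in YKO, 8.33 to 41.0 in OKO), 3 of 7 erythroid markers (1469 to 4170 CPM in YKO, 33.5 to 2532 in OKO) and 1 of 5 macrophage markers (332 to 507 CPM in YKO, 198 to 609.6 in OKO). Plasma cell markers summed to 567 to 12870.0 CPM in YKO and 36.8 to 3946 CPM in OKO with 0 of 6 called by edgeR. Prtn3 was the 1 of 9 granulocyte markers called, higher in OKO, and 0 of 6 megakaryocyte, 0 of 3 progenitor and 0 of 10 HSC markers were called. HSC markers had positive log2 fold changes in 9 of 10 (median 0.49). Of the markers in these 9 lists, Cd8a alone was at 0 in any library. YKO1 and YKO2, the libraries with the most Cdc25b, also had the most B cell markers, 795 and 1457 CPM against 243 and 194 CPM in YKO3 and YKO4. YWT2, with 645 CPM of B cell markers, had Cdc25b at 36.5 CPM, within the range of YWT. It also held 25625 CPM of plasma cell markers, against 1121, 1647 and 1331 CPM in YWT1, YWT3 and YWT4. The mix of B cell markers differed, with Cd22 at 22.3 CPM in YWT2 and at 129 and 204 CPM in YKO1 and YKO2. Without YKO1 and YKO2, Cdc25b was at -0.62 in OKO vs YKO (SE 0.286, edgeR adjusted p = 0.314), with 0 of 10 genes and 0.0542% of all genes called.

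In young mice (YKO vs YWT), 0 of 10 genes were called by edgeR, where 0.0267% of all genes were called. DESeq2 called 0 of 10 and 0.404% of all genes. The paper, by DESeq2 at the same thresholds and with more YKO samples, names higher Cdc25a and Cdc25b in YKO. It counts them among the main genes behind its cell cycle pathway scores. Why the calls differ was not tested. Here Cdc25b came nearest to a call. All 4 YKO libraries lay above all 4 YWT libraries, with means of 61.2 and 34.4 CPM and a log2 fold change of 0.83 (SE 0.292, unadjusted p = 0.00937 and adjusted p = 0.774 by edgeR). It was the 1 of 10 genes without overlap, against 5.12% of all genes and 2.12% higher in YKO, and the 1 with an unadjusted p under 0.05, against 4.59%. Without YKO1 and YKO2 the log2 fold change of Cdc25b was 0.31. Cdc25a and Cdk2 were each above all YWT libraries in 3 of 4 YKO libraries, with log2 fold changes of 0.43 (SE 0.312) and 0.19 (SE 0.227), neither of which passed. Erythroid markers summed to 555 to 2002 CPM in YWT and 1469 to 4170 CPM in YKO, where Alas2 was the 1 of 7 called. T cell markers summed to 16.7 to 26.0 CPM in YWT and 24.8 to 113 CPM in YKO, and all 6 had positive log2 fold changes (median 2.14), as did all 8 B cell markers (median 0.94). HSC markers were negative in 9 of 10 (median -0.49). None of these 3 lists held a called gene by edgeR, and the part of any marker list in the values of the 10 genes was not tested.

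With age in WT (OWT vs YWT), 0 of 10 genes were called by edgeR or by DESeq2, 0 had an unadjusted p under 0.05 and 0 had groups that did not overlap. Of all genes, 0.00297% were called by edgeR and 0.401% by DESeq2. By edgeR, 4.38% of all genes had an unadjusted p under 0.05, and 4.13% did not overlap. Log2 fold changes ran from -0.56 (Ccne2, SE 0.422) to 0.30 (Ccnd2, SE 0.271). Intervals were wide for Ccne1, from -1.81 to 1.19, and narrowest for Cdk2, from -0.71 to 0.23, and the intervals of all 10 genes reached past a 1.5-fold change in at least 1 direction. Cdk4 showed means of 458 and 451 CPM and a 95% interval of -0.66 to 0.62. With batch as a covariate, all 10 log2 fold changes were negative and several moved far from these values. Cdc25a went from -0.26 to -1.21 (SE 0.368, unadjusted p = 0.00351), Cdk4 from -0.02 to -0.96 (SE 0.348, unadjusted p = 0.0113), Cdk2 from -0.24 to -0.75 (SE 0.286, unadjusted p = 0.0159) and Cdc25b from -0.04 to -0.76 (SE 0.372, unadjusted p = 0.0526) by edgeR. In that fit 3 of 10 genes had an unadjusted p under 0.05, against 16.8% of all genes, and 0 of 10 were called, against 0.0623%. The lowest of the 10 adjusted p was 0.197, for Cdc25a.

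In old mice (OKO vs OWT), 0 of 10 genes were called by edgeR or by DESeq2, against 0.0327% and 0.217% of all genes. The groups overlapped for all 10, where 0.819% of all genes did not overlap. Ccnd2 and Ccnd1 were the 2 of 10 genes with an unadjusted p under 0.05 (0.00456 and 0.0453), against 8.14% of all genes. Granulocyte markers summed to 203 to 607 CPM in OKO and 609.1 to 897 CPM in OWT, with negative log2 fold changes in 9 of 9 (median -1.74). HSC markers were negative in 10 of 10 (median -0.39) and megakaryocyte markers in 6 of 6 (median -0.73). No gene of these 3 lists was called by edgeR, and their part in the values of Ccnd2 and Ccnd1 was not tested. With OKO of batch 2 only, the batch of OWT, log2 fold changes were -0.60 for Ccnd1 (SE 0.382), -0.44 for Ccnd2 (SE 0.214) and 0.78 for Ccne1 (SE 0.532), and the other 7 genes were between -0.03 (Ccne2) and 0.45 (Cdk6). The genotype by age interaction asks whether age acts differently in the knockout. It called 0 of 10 genes and 0% of all genes by edgeR, and 0 of 10 and 0.0208% by DESeq2. Cdc25b had an interaction of -1.09 (SE 0.386, unadjusted p = 0.00977, adjusted p = 0.811), the only 1 of 10 with an unadjusted p under 0.05, against 4.62% of all genes. Neighbouring comparisons share groups and are not independent.

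**Figure D4:**
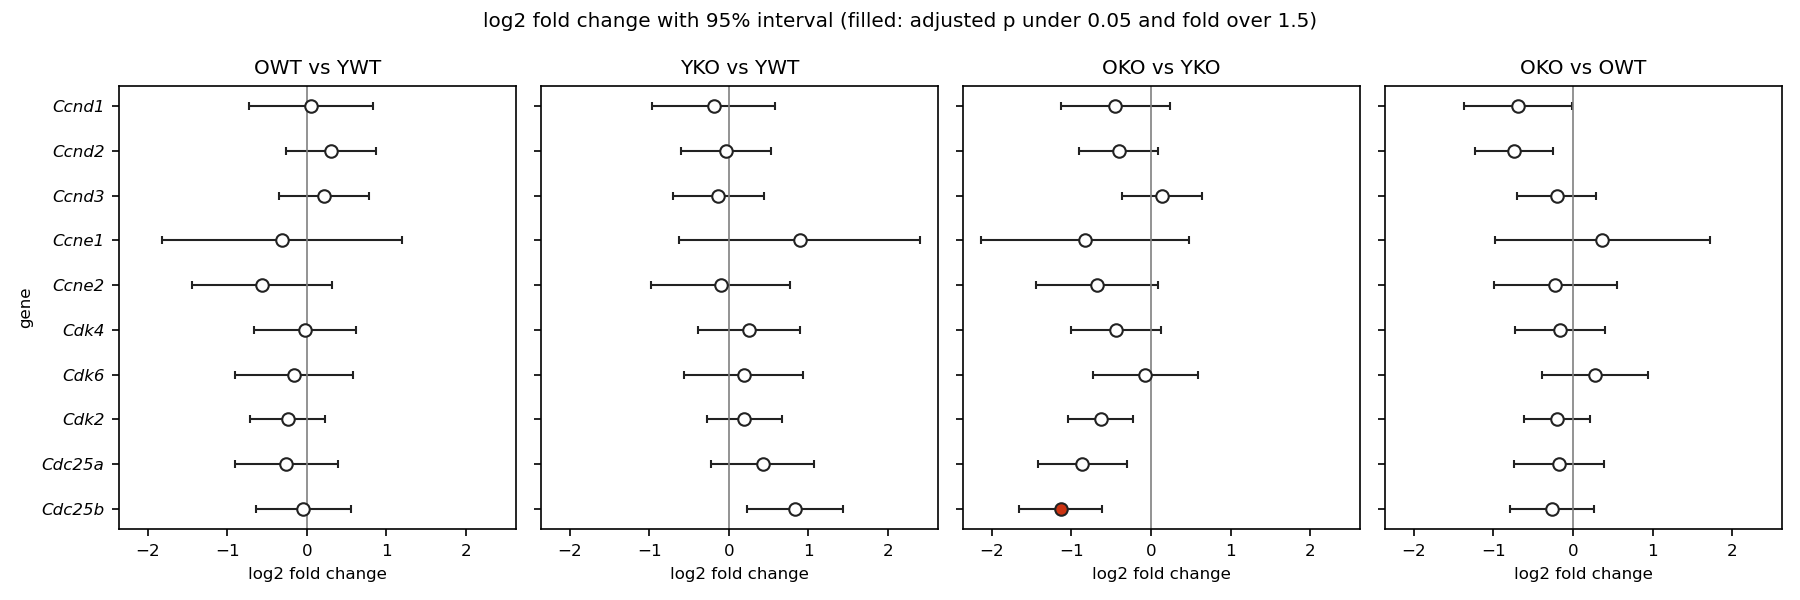
log2 fold change with 95% interval of each of the 10 genes in the 4 comparisons (filled where called, at an adjusted p under 0.05 with over 1.5-fold change). Cdc25b in OKO vs YKO, at -1.13, is the only filled point, and the intervals of Ccne1 are the widest.

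Ratios of related genes within a library do not depend on library scaling, and 6 were compared in 4 comparisons (24 tests). By a two-sided exact permutation test, 2 of 24 had p under 0.05 and 0 passed after Benjamini-Hochberg adjustment over the 24. The log2 ratio of Ccne1 to Ccne2 was 0.63, 0.51, 1.15 and 0.90 in YKO1 to YKO4 and 0.25, 0.34, -0.71 and -0.97 in YWT1 to YWT4. All YKO values were above all YWT values, by 1.07 on average (SE 0.363, exact permutation p = 0.0286, adjusted p = 0.364, the smallest p that 4 against 4 can give being 0.0286). Cdk2 to Cdk6, as a log2 ratio, was at -1.09 ± 0.31 in OKO (SD, n = 7) and -0.53 ± 0.37 in YKO (n = 4), a difference of -0.57 (SE 0.220, exact permutation p = 0.0303, adjusted p = 0.364). With OKO of batch 1 only it was -0.65 (exact permutation p = 0.0857). Ccnd3 to Ccnd2, as a log2 ratio, was at -0.17 ± 0.46 in OKO and -0.71 ± 0.14 in YKO, and the difference of 0.54 (exact permutation p = 0.0606, adjusted p = 0.364) did not pass either. With OKO of batch 1 only it was 0.48 without overlap (exact permutation p = 0.0286, the smallest that 3 against 4 can give, adjusted p = 0.343). The log2 ratio of Cdc25a to Cdc25b was 0.63 to 0.78 in YWT, the narrowest of all groups, while in YKO it was 0.09 and -0.39 in YKO1 and YKO2 and 0.89 and 0.88 in YKO3 and YKO4.

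**Figure D5:**
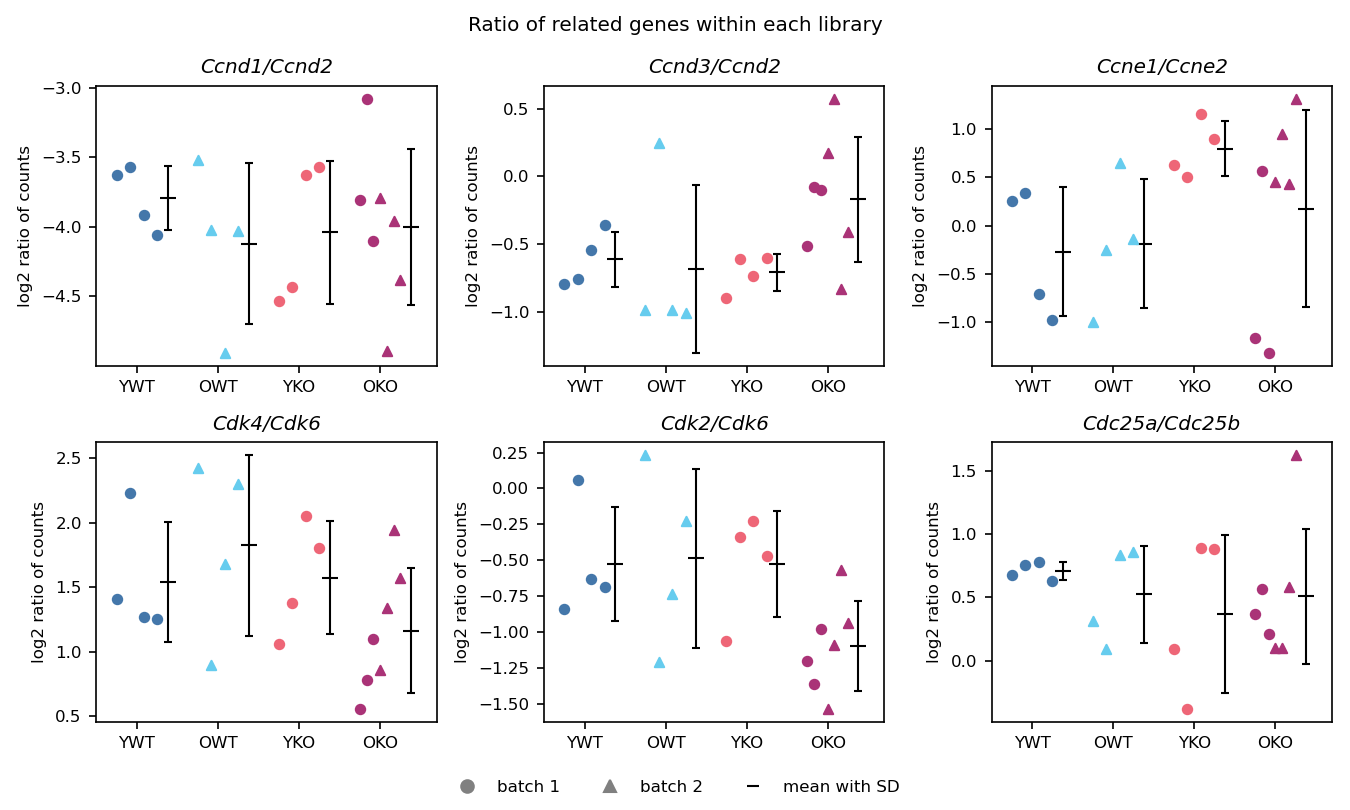
log2 ratio of counts of related genes in each library by group, circles for batch 1 and triangles for batch 2, with mean and SD in black. Ccne1/Ccne2 in YKO (0.51 to 1.15) lies above YWT (-0.97 to 0.34), and Cdc25a/Cdc25b splits YKO into 2 pairs of libraries.

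Genes around these 10 in the pathway were read from lists, beside the 1.29% of all genes called in OKO vs YKO. Of 13 Rb and E2F factors, E2f2, an activator of S phase genes, was the 1 called in OKO vs YKO, at 3.10 to 15.6 CPM in OKO and 13.0 to 31.3 CPM in YKO (log2 fold change -1.39, SE 0.344, edgeR adjusted p = 0.0449). Of 16 kinase and phosphatase regulators, Myc, a transcription factor that binds E-boxes and drives growth, was the 1 called there, at 135 to 486 CPM in OKO and 502 to 767 CPM in YKO (log2 fold change -1.09, SE 0.268, edgeR adjusted p = 0.0449). Both calls stood close to the threshold. Without OKO1 and OKO3, E2f2 was at -1.15 (adjusted p = 0.112) and Myc at -0.84 (adjusted p = 0.0410), and without YKO1 and YKO2 neither was called (adjusted p of 0.346 and 0.276). Leaving out 1 library kept the call of E2f2 in 6 of 19 fits and ended it without any 1 of the YWT libraries, OWT2, OWT4, YKO1, YKO2, OKO1, OKO3, OKO4, OKO5 or OKO6 (adjusted p up to 0.193). The call of Myc was kept in 8 of 19 and ended without YWT2, YWT3, YWT4, OWT2, YKO1, YKO3, YKO4, OKO2, OKO3, OKO4 or OKO5 (adjusted p up to 0.190). No gene of the 8 CDK inhibitors or of the 6 S and M phase cyclins and kinases was called in any comparison. Of 20 replication and division markers, 0 were called in OKO vs YKO by edgeR. Of the 20, 16 had an unadjusted p under 0.05, against 15.8% of all genes. DESeq2 called 8 of 20, against 6.3% of all genes, and edgeR without OKO7 called 14, against 5.47%. With all libraries, all 20 had negative log2 fold changes in OKO vs YKO (median -1.03), against 38.2% of all genes (median 0.23). Without OKO1 and OKO3 all 20 were negative with a median of -0.66. All 20 were positive in YKO vs YWT (median 0.47), against 48.1% of all genes, and negative in OWT vs YWT (median -0.43), against 54.3%. Their summed level was 677 and 695 CPM in OKO3 and OKO1 and 1969 to 5044 CPM in the other 17 libraries, and it was not tested whether it bears on the low E-type cyclins of those 2 libraries.

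For each gene, the tested gene of at least 5 CPM most like it was found from 12324 genes over 19 libraries, after the mean of each group was removed. The correlation describes libraries that share depth and sort, and no test was made. Cdk4 was most like Clns1a (Pearson r = 0.990), a subunit of the methylosome, and Ccne1 was most like Crip2 (r = 0.984). Cdc25a was most like Eme1 (r = 0.971), a DNA repair endonuclease subunit, and Ccne2 most like Cenpk (r = 0.964), a kinetochore protein. Ccnd3 went with Ankrd54 (r = 0.951), Ccnd2 with Gm6278 (r = 0.949), Cdk2 with Eif4h (r = 0.946), Cdc25b with Zfp280b (r = 0.915) and Ccnd1 with Ncoa7 (r = 0.826). Cdk6 was most like Gm17590 (r = 0.923), which overlaps its exons on the other strand and can share its reads. Among the 10 genes, the closest pairs were Ccne1 with Ccne2 (r = 0.902), Ccne1 with Cdc25a (r = 0.897) and Cdk2 with Cdk4 (r = 0.885).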

How the data were processed

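Per the paper's methods, the authors made libraries with the SMART-Seq v4 Ultra Low Input kit, trimmed reads with Trim Galore 0.4.3, aligned them with STAR to mm10 with GENCODE M22 and deposited raw counts of reads per gene from featureCounts. How read pairs and shared reads were counted is not given in the sources used here. The members and gene lists were chosen with earlier results of these data known.

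Genes were filtered with filterByExpr, scaled by TMM and tested with the quasi-likelihood test of edgeR 4.0.16 (R 4.3.3, limma 3.58.1), in 1 fit of all 19 libraries with 4 group means and no covariate. A gene was called at a Benjamini-Hochberg adjusted p under 0.05 over all 33690 genes and a fold change over 1.5, or at the adjusted p alone for the interaction. CPM values carry the TMM factor. Ratios had 0.5 added to each count. Lengths are of GENCODE M21 exons. Alternatives were DESeq2 1.42.0, upper-quartile scaling, 2 other filters, the adjusted p alone, batch or replicate number as a term, OKO of 1 batch and each library left out. Genes named are the 10 members, list genes that were called or bear on a member, and the gene most like each member. The labels do not state that libraries came from separate mice, so p-values measure the spread between libraries. Of the series, 10 methylation samples were not analysed here. Totals of 22197555 to 77970627 counts per library set the counting precision.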

Additional observations from a re-analysis of the deposited data

Results flagged for a closer look

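Groups of 4 to 7 libraries were searched for a library far from the rest, by Dixon's test at the 95% level, in 64 sets of values (10 genes and 6 ratios in 4 groups). Chance flags about 1 in 20 such sets, or 3.2 of 64, and 4 were flagged. Cdc25a in OKO7 was at 83.2 CPM, with the other 6 OKO libraries between 19.1 and 44.4 CPM. The log2 ratio of Cdc25a to Cdc25b in OKO7 was 1.63, with the others between 0.10 and 0.58. In OWT2 the log2 ratio of Ccnd3 to Ccnd2 was 0.24, with the others between -1.01 and -0.98. YWT2 had a log2 ratio of Cdk4 to Cdk6 of 2.23, with the others between 1.25 and 1.41.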

How the results depend on the processing

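The count of the 10 genes called in OKO vs YKO was 1 and moved with the processing. DESeq2 called 2 (6.3% of all genes), a mean CPM of at least 5 also 2 (12.1%), batch as a covariate 5 (19.1%) and OKO of batch 1 only 5. OKO of batch 2 only, OKO1 and OKO3 left out, and YKO1 and YKO2 left out each gave 0 (0.815%, 0.834% and 0.0542% of all genes), and these 3 alternatives, with Y-linked counts as a covariate, were chosen after seeing the data. Leaving out 1 library gave 0 to 3, with 0 without YKO1 (Cdc25b adjusted p = 0.133, 0.284% of all genes called), YKO2 (0.0713, 0.635%) or OKO3 (0.0512, 0.693%), and 3 without OKO7 (Cdc25b, Cdc25a and Cdk2, 5.47%). Cdc25b kept its sign in OKO vs YKO under every alternative, from -1.59 to -0.62, with an adjusted p from 0.000541 to 0.314. In the other 3 comparisons and the interaction, 0 of 10 genes were called under every alternative. The cause of these moves was not tested.

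Correlations of the deviations of same-numbered libraries ran from -0.47 to 0.30, with 4 of 16 over 0.1. They cannot show whether replicate numbers pair libraries. In YWT and YKO, Y-linked genes summed to 0 to 0.13 CPM in replicates 1 and 2 and to 145 to 218 CPM in replicates 3 and 4. With replicate number as a block, 3 of 10 genes (Cdc25b, Cdc25a and Cdk2) were called in OKO vs YKO (5.27% of all genes), Ccnd3 turned to -0.17 there and Ccne1 to -0.49 in OKO vs OWT.

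Log2 fold changes of genes that were not called changed sign elsewhere. In OKO vs OWT, batch 2 only gave 0.12 for Ccnd3, 0.024 for Cdk2, 0.20 for Cdk4, 0.19 for Cdc25a and 0.035 for Cdc25b, and batch as a covariate gave 0.092 for Ccnd3, 0.17 for Cdk4, 0.16 for Cdc25a and 0.0048 for Cdc25b. There a mean CPM of at least 5 gave 0.0018 for Ccnd3, 0.034 for Cdk2, 0.017 for Cdk4 and 0.0051 for Cdc25a, and upper-quartile scaling gave 0.0060 for Cdk2. In OKO vs YKO, Ccnd3 turned to -0.33 with OKO of batch 1, to -0.39 with batch as a covariate and to -0.023 without YKO1 and YKO2. Cdk6 turned to 0.093 with OKO of batch 2, 0.11 without OKO1 and OKO3, 0.068 without YKO1 and YKO2, 0.14 at a mean CPM of at least 5, 0.0091 with no filter and 0.053 under upper-quartile scaling. In OWT vs YWT, batch as a covariate gave -0.10 for Ccnd1, -0.45 for Ccnd2 and -0.61 for Ccnd3, and Ccnd1 turned to -0.010 with Y-linked counts as a covariate, -0.00045 at a mean CPM of at least 5 and -2.8e-05 under upper-quartile scaling. Without YKO1 and YKO2, YKO vs YWT gave 0.27 for Ccnd1, 0.088 for Ccnd2 and 0.029 for Ccnd3. Leaving out 1 library spanned 0 in OWT vs YWT for Ccnd1 (-0.34 to 0.24), Ccne1 (-1.02 to 0.0053), Cdc25b (-0.15 to 0.083), Cdk4 (-0.10 to 0.066) and Cdk6 (-0.65 to 0.023). It spanned 0 in YKO vs YWT for Ccnd1 (-0.42 to 0.0075), Ccnd2 (-0.12 to 0.046) and Cdk6 (-0.047 to 0.29). It did so in OKO vs YKO for Ccnd3 (-0.010 to 0.28) and Cdk6 (-0.17 to 0.16), and in OKO vs OWT for Ccne1 (-0.13 to 1.08) and Ccne2 (-0.42 to 0.031). Over 40 values and 1100 recomputations, 1025 kept their sign and their side of the threshold.

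Ratios with an unadjusted exact p under 0.05 numbered 0 to 1 when 1 library was left out in YKO vs YWT, 0 to 2 in OKO vs YKO and 0 to 3 in OKO vs OWT. With the longest transcript as the length, 4 of 10 genes kept their rank by level in YWT, 3 in OWT, 3 in YKO and 6 in OKO. The lowest count behind any of these values was 145, for Ccne1 in OKO1.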
